A study of Mus musculus with 186 samples.

Results

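The DNA methylation of inserted CpG island promoters was measured by amplicon bisulfite sequencing (Bis-seq) in single clones of wild-type mouse embryonic stem cells (ESCs). All 96 samples labelled as clones were taken as members, and 58 methylation values were read for them. The values name the inserted construct and not the clone, so a value could not be tied to a clone number. Each value was taken as 1 clone, an assumption on which the clone counts and the spread between clones depend, and 38 clones had no value used here. The 58 clones carried 25 of the 60 constructs of a library of CpG mutants, from 11 of its 12 promoters. Of these constructs 11 were seen in 1 clone, 8 in 2 clones and 6 in 3 or more clones.

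Each library promoter had been made with 0%, 25%, 50%, 75% or 100% of its non-motif CpGs mutated, that is of the CpGs outside the motifs of bound transcription factors, and the mutations replaced C by A. The library was placed by recombinase-mediated cassette exchange at a site in the beta-globin locus of the wild-type ESCs, which were grown in serum with LIF, so all constructs shared a genomic position. The clones were colonies picked from this pool and expanded for bisulfite conversion. Activity of the same constructs came from TrAC-seq, in which the RNA and DNA reads of barcodes (BCs) linked to each construct are set against each other, in 3 replicates of the wild-type (WT) pool and 3 of a TKO pool. TKO cells were made from the WT line by CRISPR-Cas9 deletion of the DNA methyltransferase genes Dnmt1, Dnmt3a and Dnmt3b. Clones were WT throughout, and no TKO clone was part of the bisulfite samples. ESC identity was not checked, because no measure of endogenous genes was used. Nothing in the labels said that replicates were separate cultures, so p-values between the pools measure the spread between these samples only.

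CpG islands are stretches of DNA in which CpG dinucleotides have stayed frequent, and they overlap the start sites of most housekeeping genes. The cytosine of a CpG can be methylated by DNA methyltransferases, and CpG islands are usually free of this mark, whereas most isolated CpGs of the genome carry it. A methylated promoter is as a rule silent, while DNA-binding proteins and histone marks of active promoters can keep the methyltransferases away. Bisulfite turns unmethylated cytosine into uracil and leaves methylated cytosine, so the fraction of reads that keep C gives the methylation level. Here a level is the average over all CpGs of a promoter in a clone, in percent. At the level of 100% mutated, the CpGs that remained lay in motifs, so the levels of different constructs are averages over different CpGs.

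The inserts were mouse promoters on the mm9 build, and the number of CpGs in the reference sequence equalled the listed number for each of the 12 unmutated constructs. The reference bases just upstream of the annotated start are shown for 4 promoters, with each CpG in capitals. They were chosen after the values were seen, since 3 of them were unmethylated or nearly so when unmutated or when mutated in 50% of CpGs, and the fourth, Rrm1, was partly methylated without any mutation. The sequences are those of the reference genome, and none of the mutated versions is printed. Rrm1 lies at chr7:109590010-109590208 on the plus strand and Cops8 at chr1:92499800-92499999 on the plus strand. Nsmce1 lies at chr7:132635111-132635310 on the minus strand and Snrpb2 at chr2:142888575-142888774 on the plus strand.
Rrm1: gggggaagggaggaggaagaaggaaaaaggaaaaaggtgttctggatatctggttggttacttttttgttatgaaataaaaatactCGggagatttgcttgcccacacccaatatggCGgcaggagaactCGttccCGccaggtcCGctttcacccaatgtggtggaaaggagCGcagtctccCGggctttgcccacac
Cops8: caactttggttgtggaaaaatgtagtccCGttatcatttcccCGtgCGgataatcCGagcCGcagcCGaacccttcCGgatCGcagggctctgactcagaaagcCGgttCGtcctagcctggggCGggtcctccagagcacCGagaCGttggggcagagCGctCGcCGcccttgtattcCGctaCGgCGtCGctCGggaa
Nsmce1: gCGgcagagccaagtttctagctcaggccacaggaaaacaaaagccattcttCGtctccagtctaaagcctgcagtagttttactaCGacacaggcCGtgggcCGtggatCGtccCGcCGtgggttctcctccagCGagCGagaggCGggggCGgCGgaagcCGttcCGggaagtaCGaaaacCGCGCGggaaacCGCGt
Snrpb2: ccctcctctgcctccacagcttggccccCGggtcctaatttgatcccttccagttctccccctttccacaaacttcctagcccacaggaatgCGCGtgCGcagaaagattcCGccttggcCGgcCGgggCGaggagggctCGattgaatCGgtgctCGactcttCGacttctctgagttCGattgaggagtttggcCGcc
The upstream bases of Rrm1 held 7 CpGs in 199 bases, against 21 in 200 for Cops8, 21 in 200 for Nsmce1 and 14 in 200 for Snrpb2. The Rrm1 insert held 37 CpGs in all, of which 30 lay downstream of the start. Normalized CpG density (OE) is the observed number of CpGs over that expected from the C and G content. It was taken over all bases of the insert on each side of the start, not over the printed bases alone. The upstream part held 303 bases in Snrpb2, 253 in Cops8, 213 in Nsmce1 and 199 in Rrm1. In Rrm1 the OE was 0.57 upstream of the start and 1.03 downstream of it. The order was the same in Snrpb2, with 0.69 upstream and 1.19 downstream, so it was not particular to Rrm1. It was the reverse in Cops8, with 1.16 and 0.99, and in Nsmce1, with 1.13 and 0.92.

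The 4 unmutated constructs with clones separated by promoter. The 3 clones of unmutated Snrpb2, a protein of the spliceosomal U2 particle, were at 0.0183%, 0.0205% and 0.108% methylation. The 4 clones of unmutated Napg, a SNAP protein of vesicle fusion, were at 0.0184%, 0.313%, 0.397% and 1.23%. The 4 clones of unmutated Nsmce1, a subunit of the SMC5/6 complex of DNA repair, were at 0.711%, 1.35%, 2.05% and 2.44%. All 11 of these clones thus lay below 3%. The 2 clones of unmutated Rrm1, which encodes the large subunit of ribonucleotide reductase, were at 18.2% and 22.8% and lay above every other unmutated clone. The OE of the unmutated Rrm1 construct was 0.88, close to the 0.89 of Napg and below the 0.93 of Snrpb2 and 0.99 of Nsmce1.

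**Figure D1:**
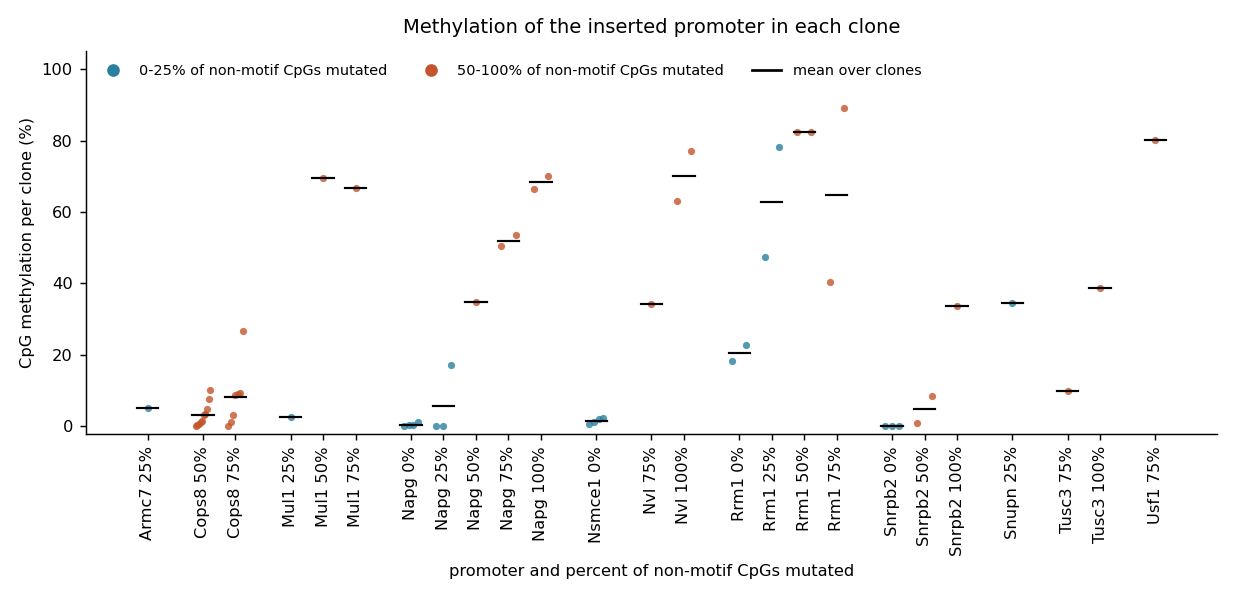
Methylation of the inserted promoter in percent for each of 58 clones, by promoter and percent of non-motif CpGs mutated. Each point is a clone and each black line the mean over the clones of a construct. Clones of Snrpb2, Napg and Nsmce1 at 0% lie near 0, Rrm1 clones lie between 18.2% and 89.04%, and Cops8 clones reach 26.7% at most.

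Rrm1 clones were partly to highly methylated at each of the 4 levels measured. Its insert spans chr7:109590010-109590565, from 199 bases upstream of the annotated start into the gene, coding sequence included. With 25% of non-motif CpGs mutated, its 2 clones were at 47.5% and 78.3%, a mean of 62.9% ± 21.8 (SD, n = 2). With 50% mutated they were at 82.3% and 82.4%, and with 75% mutated at 40.5% and 89.04%. The mean therefore rose by 42.3 percentage points at the first level of mutation, and the 2 clones at 75% spanned the value at 50%. The Rrm1 construct with 25% mutated was the only one of the 9 constructs with 0% or 25% mutated to exceed 50% methylation, while its OE of 0.73 was close to that of constructs near 0. Its activity in WT cells was a log2 RNA/DNA ratio of -3.94 ± 0.08 (SD, n = 3), against -2.43 ± 0.10 for the unmutated construct. Both mutated constructs beyond it were as low, at -3.98 with 50% and -3.92 with 75% mutated. The lowest value the assay can give is -4.32, which is what a construct with no RNA reads takes, and constructs within 0.5 of it are called inactive here.

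Napg was the only promoter with clones at all 5 levels. With 25% mutated its 3 clones were at 0.0168%, 0.018% and 17.2%, so that 1 clone stood apart from the others. With 50% mutated its single clone was at 34.9%. With 75% mutated 2 clones were at 50.5% and 53.6%, and with 100% mutated 2 clones were at 66.5% and 70.2%. Methylation thus rose at each of the 4 steps, and clones of neighbouring levels did not overlap from 25% mutated upwards. The number of CpGs fell over these levels from 38 in the unmutated construct to 5 in the fully mutated one. Activity in WT cells fell from a log2 ratio of -0.14 ± 0.14 in the unmutated construct to -0.91 at 25%, -1.16 at 50%, -2.65 at 75% and -3.93 ± 0.19 at 100% (SD, n = 3).

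Mul1, a mitochondrial ubiquitin ligase, had 1 clone at each of 3 levels. Its insert lies at chr4:137990295-137990833. The clone with 25% mutated was at 2.55%, the clone with 50% at 69.6% and the clone with 75% at 66.7%. The step from 25% to 50% mutated, 67.1 percentage points, was the widest between neighbouring levels of a promoter, and it rests on 1 clone a side. Activity in WT cells was already low at 25% mutated, with a log2 ratio of -3.59 ± 0.18 (SD, n = 3), and was -3.96 at 50% and -3.94 at 75%. The Mul1 construct with 25% mutated was thus the least active of the 10 constructs with mean methylation under 10%.

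The Snrpb2 insert (chr2:142888472-142889011) was little methylated at 0% and 50% mutated and more so at 100%, with no clone at the levels between. With 50% mutated its 2 clones were at 0.917% and 8.54%, and with 100% mutated its single clone was at 33.8%. Activity in WT cells fell at both steps, from a log2 ratio of 1.24 ± 0.13 to -1.48 ± 0.35 and -3.84 ± 0.18 (SD, n = 3). Between 0% and 50% mutated activity was lower by 2.73 on the log2 scale while mean methylation was higher by 4.68 percentage points.

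Cops8, a subunit of the COP9 signalosome, gave the largest set, with 17 clones. Its insert lies at chr1:92499747-92500254 and has 52 CpGs when unmutated, the most in the library. The 10 clones with 50% mutated had a median of 2.34%, the lowest at 0.0207% and the highest at 10.2%. The 7 clones with 75% mutated were at 0.0307%, 1.13%, 3.25%, 8.87%, 9.06%, 9.45% and 26.7%. The clones of both levels overlapped, and their means were 3.29% ± 3.39 (SD, n = 10) and 8.35% ± 8.99 (SD, n = 7). With 75% mutated the OE was 0.52, close to the 0.54 of Mul1 and of Rrm1 with 50% mutated, whose clones were between 69.6% and 82.4%. Low methylation at this density was not particular to Cops8, as Armc7 with 25% mutated had an OE of 0.52 and 1 clone at 5.16%. Napg with 50% mutated, at an OE of 0.58, had 1 clone at 34.9%. The Cops8 constructs were also the most active of those with 50% or more mutated, with log2 ratios in WT cells of 1.10 ± 0.03 at 50% and -0.31 ± 0.08 at 75% (SD, n = 3).

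The other promoters had 1 or 2 constructs each. Nvl, a nuclear AAA ATPase of ribosome production (chr1:183074142-183074692), had 1 clone at 34.3% with 75% mutated and 2 clones at 63.1% and 77.2% with 100% mutated. Tusc3, a subunit of the oligosaccharyltransferase complex (chr8:40068715-40069150), had 1 clone at 9.89% with 75% mutated and 1 at 38.9% with 100%. In both promoters the fully mutated construct was thus the more methylated, and its activity in WT cells was the lower, at a log2 ratio of -3.74 against -2.63 for Nvl and -3.93 against -2.27 for Tusc3. Usf1, a helix-loop-helix transcription factor (chr1:173341184-173341734), had 1 clone at 80.04% with 75% mutated. Snupn, the snurportin that carries spliceosomal particles into the nucleus (chr9:56798379-56798946), had 1 clone at 34.5% with 25% mutated. Armc7, an armadillo repeat protein (chr11:115336697-115337238), had 1 clone at 5.16% with 25% mutated. Snupn was thereby the third construct with 0% or 25% mutated above 20%, beside the unmutated Rrm1 and Rrm1 with 25% mutated. Conversely, 4 constructs with 50% or more mutated were under 10%, namely Cops8 at 50% and 75%, Snrpb2 at 50% and Tusc3 at 75%.

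**Figure D2:**
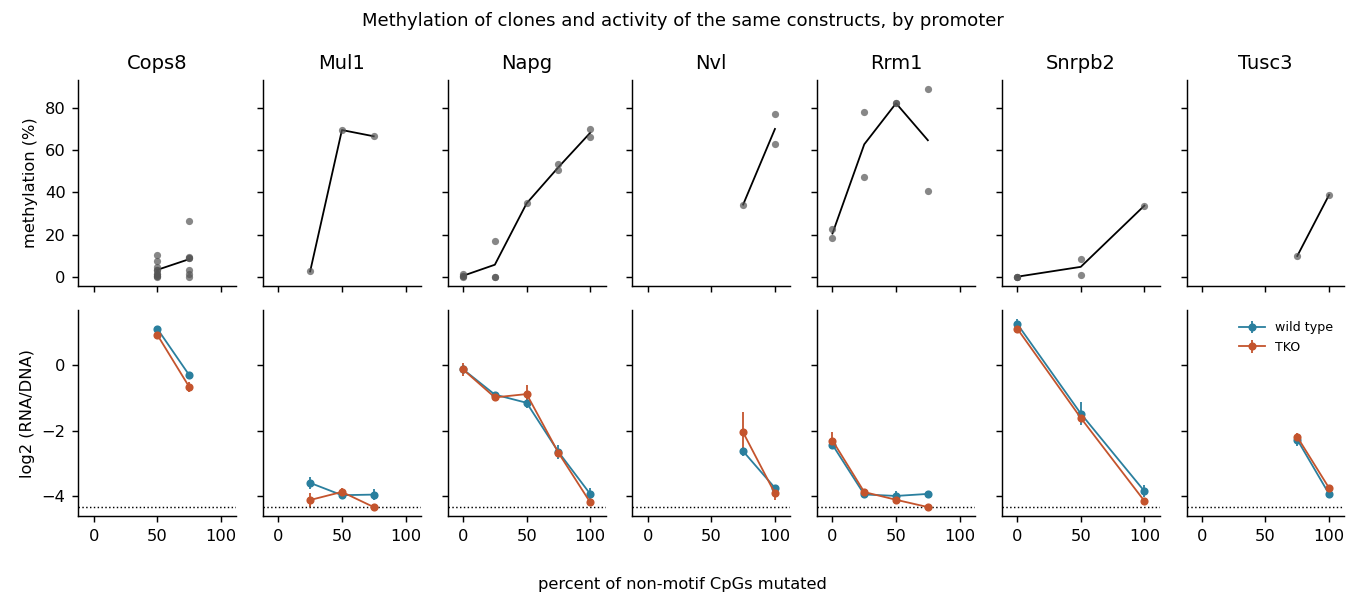
Methylation of clones in percent (upper row, points are clones and lines join construct means) and activity as log2 RNA/DNA (lower row, mean ± SD of up to 3 replicates of WT and TKO cells) against the percent of non-motif CpGs mutated, for the 7 promoters with 2 or more constructs. The dotted line is the lowest value of the assay at -4.32. Where methylation rises from one level to the next, activity in WT cells falls, though by only 0.05 between the inactive Rrm1 constructs with 25% and 50% mutated.

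Constructs with 50-100% of non-motif CpGs mutated were compared with those with 0-25% mutated, to ask whether lower CpG content went with more methylation. Mean methylation was 45.1% ± 27.8 (SD, n = 16 constructs, 37 clones) in the first and 14.8% ± 21.4 (SD, n = 9 constructs, 21 clones) in the second. The difference of 30.3 percentage points passed the exact two-sided permutation test over all 2042975 divisions of the constructs (p = 0.0111). It also passed when class labels were exchanged within promoters only (permutation p = 0.00183). That exchange moves labels only in the 4 promoters with clones in both classes. In each of them the observed labels set the class means as far apart as possible, so this p-value is about the smallest the exchange allows. The call rested in part on Napg and on single clones, as the difference was 25.4 points without Napg (permutation p = 0.0726) and 29.03 points with the 14 constructs seen in at least 2 clones (permutation p = 0.0999). By level, the means over constructs were 5.68% at 0%, 22.1% at 25%, 38.96% at 50%, 45.1% at 75% and 52.8% at 100% mutated. Constructs spread widely inside each level, with SDs between 9.92 and 36.3 points.

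The 4 promoters Mul1, Napg, Rrm1 and Snrpb2 had clones in both classes and differed in the same direction. The class mean was higher with 50-100% mutated by 65.6 points in Mul1, 48.6 in Napg, 31.9 in Rrm1 and 19.2 in Snrpb2. The mean of these differences was 41.3 points, and the exact sign-flip permutation test gave p = 0.125, the smallest that 4 promoters allow. Over the 7 promoters with several constructs there were 14 steps between neighbouring levels with clones. Mean methylation was higher after 12 of them, by 4.68 to 67.1 points, and lower after 2, the steps from 50% to 75% of Mul1 and of Rrm1. Activity in WT cells was lower after the same 12 steps. Among these, the step of Rrm1 from 25% to 50% mutated was a change of only -0.05 on the log2 scale, between inactive constructs. After the steps of Mul1 and Rrm1 from 50% to 75% it was higher by 0.02 and 0.06, again between inactive constructs. Changes of this size near the lowest value of the assay give no clear direction. In TKO cells activity was lower after 10 of the 12 steps with higher methylation. At the 2 steps with lower methylation it dropped by 0.46 in Mul1 and dropped by 0.22 in Rrm1, so that TKO activity was lower after 12 of all 14.

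Methylation and normalized CpG density were inversely related over the 25 constructs. Spearman's rho was -0.64 and Pearson's r -0.61. With clone values exchanged between constructs both gave a two-sided permutation p of 0.00086 (adjusted over 4 relations with methylation, Benjamini-Hochberg, p = 0.00115 for rho). That exchange treats clones of a construct as independent, although OE belongs to the construct. With construct means permuted instead, the permutation p was 0.00073 for rho and 0.00169 for r. With the 2 constructs of the most extreme OE left out, r was -0.54 (permutation p = 0.00648). When both measures were centred on the promoter, over 21 constructs of promoters with several levels, rho was -0.85 (permutation within promoters, p = 0.00013). Constructs of a promoter share sequence, and the number of CpGs and the G+C content move with OE, with rho to methylation of -0.69 for the number of CpGs and -0.64 for G+C content, the latter added after the values were seen.

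**Figure D3:**
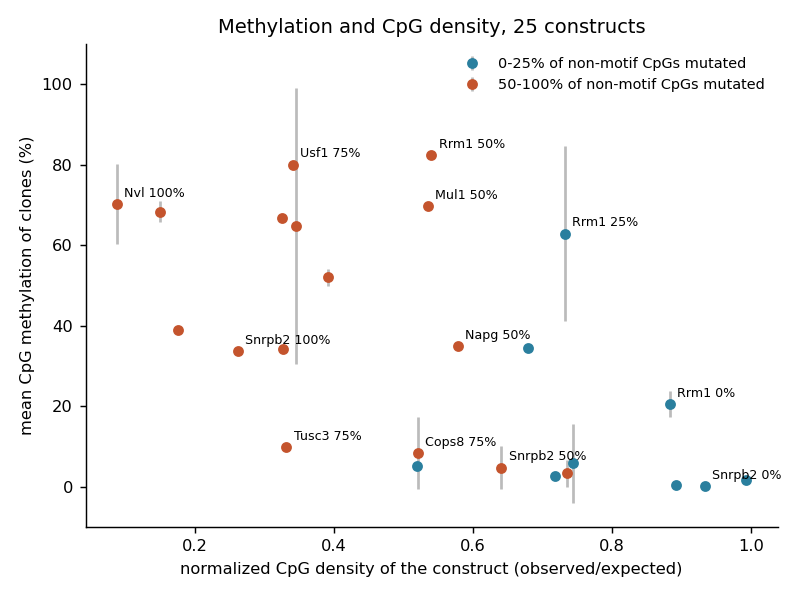
Mean methylation of clones in percent against normalized CpG density (observed over expected) of the construct, for 25 constructs. Bars are the SD over clones where there were 2 or more. The 3 unmutated constructs of Snrpb2, Napg and Nsmce1 lie near 0 at the right, and below an OE of 0.6 values run from 5.16% to 82.3%.

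Across promoters, sparse constructs did not order by density. The 15 constructs with an OE under 0.6 averaged 47.9% ± 26.4 (SD), the 10 with an OE of 0.6 or more 13.6% ± 20.5 (SD). Among the 15 sparse constructs rho between methylation and OE was -0.08. Between methylation and log2 activity rho was -0.72 in WT cells and -0.60 in TKO cells. Within promoters in this range, methylation was higher at lower OE in Napg, Nvl and Tusc3, and lower at lower OE in Mul1 and Rrm1 from 50% to 75% mutated. Fully mutated Snrpb2 and Tusc3, with an OE of 0.26 and 0.18, were at 33.8% and 38.9%, below the denser Rrm1 and Mul1 constructs with 50% mutated at 82.3% and 69.6%.

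Clones of a construct resembled each other more than clones of different constructs. Over the 14 constructs with 2 or more clones, 47 clones, the pooled SD between clones was 8.85 points and the SD between construct means 32.4 points. Constructs accounted for a fraction of 0.933 of the variance of methylation, and exchange of clone values between constructs gave a permutation p of 1e-05, the smallest that 100000 resamples allow. The median SD of a construct was 3.33 points, and single constructs ran from 0.0512 in unmutated Snrpb2 to 34.3 in Rrm1 with 75% mutated. Constructs whose mean was under 10% and those with 10% or more had like median SDs, 3.39 and 3.26 points. Their pooled SDs were unlike, at 5.60 and 15.9 points, and their largest SDs were 9.90 and 34.3 points. The second group held 7 constructs with 14 clones in all, so its median SD is a weak summary. In several constructs with few clones the clones lay far apart, namely Napg with 25% mutated (0.0168%, 0.018% and 17.2%), Rrm1 with 25% mutated (47.5% and 78.3%) and Rrm1 with 75% mutated (40.5% and 89.04%).

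Methylation was then set against the activity of the same constructs in the pools. Both measures share the constructs' sequence, and activity of all constructs came from the same libraries, so the relations are given as descriptions. Over 25 constructs rho between mean methylation and log2 activity in WT cells was -0.83 (r = -0.78). Over the 24 constructs that passed the filter in TKO cells, where the methyltransferases are deleted, rho with TKO activity was -0.70 (r = -0.77). Constructs more methylated in WT clones were thus in general less active in both lines, and the activities of the lines followed each other closely (rho = 0.90, n = 24). With OE held constant, an alternative added after the values were seen, rho was -0.73 for WT and -0.51 for TKO activity.

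**Figure D4:**
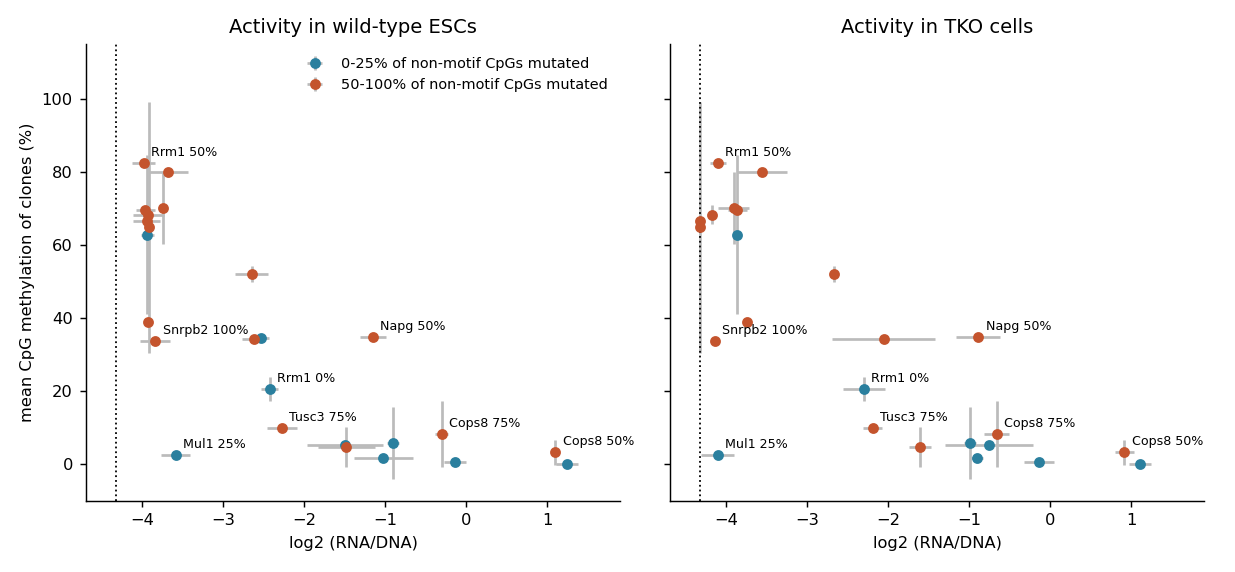
Mean methylation of clones in percent against log2 RNA/DNA of the same construct in WT (left, 25 constructs) and TKO cells (right, 24 constructs). Bars are SDs over clones and over replicates, the dotted line is the lowest value of the assay, and constructs above 50% methylation lie at -2.65 or lower in both panels, with Mul1 25% alone at the lower left.

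The 9 constructs with mean methylation above 50% had a median log2 activity of -3.93 in WT cells, and 6 of them were inactive. The highest of these was Napg with 75% mutated at -2.65. The 6 constructs between 10% and 50% had a median of -2.58, and 2 of them were inactive. The 10 constructs below 10% had a median of -0.97 and a range from -3.59 to 1.24, and none was inactive. Active and weakly active constructs were therefore found at low methylation, but low activity was also found there, in Mul1 with 25% mutated. Within the 16 constructs with 50-100% mutated, rho with WT activity was -0.77, with TKO activity -0.66 and with OE -0.34. The 4 of them below 10% methylation had log2 ratios from -2.27 to 1.10, and the 12 others from -3.98 to -1.16 with a median of -3.88.

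TKO cells lack the methyltransferases, so whether the methylated constructs were more or less active without them was tested with limma over all 51 constructs measured in both pools. Of these 14, or 27.5%, passed an adjusted p under 0.05, with 7 higher and 7 lower in TKO (13.7% each). Among the 24 constructs with clones 3 passed, and all 3 were lower in TKO cells. Rrm1 with 75% mutated fell by 0.40 ± 0.08 (SE, limma adjusted p = 0.032), Mul1 with 75% by 0.38 ± 0.11 (limma adjusted p = 0.0445) and Mul1 with 25% by 0.52 ± 0.15 (limma adjusted p = 0.0445). In the first 2, which were 64.8% and 66.7% methylated, all TKO replicates were at -4.32, the lowest value of the assay, and the WT replicates between -4.13 and -3.80, so the constructs were inactive in both lines. With all replicates no construct with clones passed as higher in TKO cells by limma, with or without adjustment, and 5 were lower at an unadjusted p under 0.05. These calls were fragile. Without WT replicate 2 or 3 or TKO replicate 2 or 3, 0 of all 51 constructs passed. Without WT replicate 1, 6 of all 51 passed, and of those with clones only Rrm1 with 75% mutated, lower in TKO. Without TKO replicate 1, 8 of all 51 passed, and none of the 3 lower calls was left among constructs with clones. The 1 that passed then was Nvl with 75% mutated, higher in TKO by 1.02 ± 0.19 (SE, limma adjusted p = 0.0218), a value that rests on TKO replicate 2 alone, since TKO replicate 3 had too few BCs.

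The 9 constructs above 50% methylation changed by -0.40 to 0.12 on the log2 scale, with a median of -0.12, and 3 were higher and 6 lower in TKO cells. The upper ends of their 95% intervals reached 0.59 in Usf1 with 75% mutated. Rrm1 with 50% mutated, the most methylated construct, changed by -0.12 (95% interval -0.38 to 0.15, limma adjusted p = 0.495), from replicates at -3.83, -4.09 and -4.04 in WT to -4.15, -4.17 and -3.98 in TKO. The replicates of both lines overlapped. Napg with 75% mutated, at 50.5% and 53.6% methylation and above the inactive range, changed by -0.03 (95% interval -0.32 to 0.27, limma adjusted p = 0.91). The constructs between 10% and 50% had a median change of 0.18 (n = 5), with the largest in Nvl with 75% mutated at 0.57 (95% interval -0.14 to 1.28, limma adjusted p = 0.208), where TKO replicate 3 had too few BCs and was left out. The 10 constructs below 10% had a median change of -0.11 and a range from -0.52 to 0.73.

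**Figure D5:**
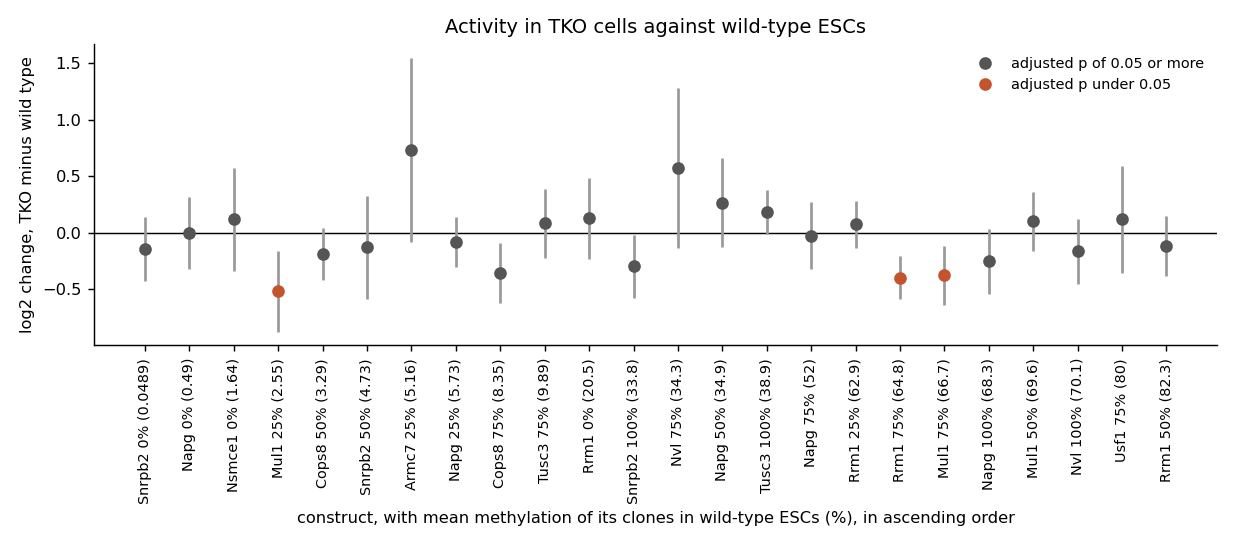
Change of log2 RNA/DNA from WT to TKO cells for 24 constructs, ordered by the mean methylation of their WT clones, which stands in percent after each name. Points are limma estimates and bars 95% intervals, and the 3 constructs that passed an adjusted p under 0.05 all lie below 0.

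Over these 24 constructs no relation of methylation to the change of activity was detected. Spearman's rho was -0.01 and r -0.10, and the exact permutation test over all 20 exchanges of the line labels between the 6 replicates gave p = 0.9, where 0.1 is the smallest possible. Without inactive constructs the sign turned, with a rho of 0.38 (n = 14, exact permutation p = 0.4). A change in inactive constructs below what BCs can resolve cannot be seen in this assay, as 8 of 25 constructs in WT and 9 of 24 in TKO lay within 0.5 of its lowest value. Precision also differed between lines, since constructs with clones had 4 to 321 BCs a replicate in WT and 2 to 83 in TKO cells. Read coverage behind the methylation values is unknown, so no counting interval is given for a clone.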

How the data were processed

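Methylation came as a deposited fraction per clone, which the authors obtained by bisulfite amplicon sequencing, alignment and methylation calling with QuasR at default bisulfite settings, averaging over all CpGs of the promoter (build mm9 and the aligner Bowtie in the submitters' processing notes). Fractions were multiplied by 100. Coverage and conversion rate were not given in the sources used here. Activity was a deposited ratio, made by the authors as RNA over DNA reads of each barcode with a pseudocount of 0.05, averaged geometrically over barcodes with over 20 DNA reads. It was put on the log2 scale, so log2 fold changes include that pseudocount. OE is a deposited ratio, the numbers of barcodes and CpGs are deposited counts and G+C content a deposited percent. Constructs needed at least 3 barcodes in at least 2 replicates.

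Clones of a construct were averaged first. Permutation tests used 100000 resamples (seed 20) in Python 3.11.15 with numpy 2.4.6 or were exact. TKO was compared with WT with limma 3.58.1 in R 4.3.3, without a replicate block, and p-values were adjusted by Benjamini-Hochberg. Scripts were checked on simulated data. Named were every promoter with a value, its unmutated and fully mutated constructs, every construct with 2 or more clones, the 5 highest and 5 lowest by mean, every construct with 0-25% mutated over 20% and every one with 50-100% under 20%. Constructs and comparisons were chosen with earlier results of these data known. Reference sequence and gene starts are from NCBIM37 with GENCODE annotation. Alternatives covered the averaging, the classes, left-out clones, promoters and replicates, barcode minimums, median centring and the replicate block. Of the other libraries only methylation, OE and the number of CpGs of the Snx3 library were used, for the closing observations. Tables of the authors' own comparisons were not used.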

Additional observations from a re-analysis of the deposited data

Results flagged for a closer look

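Among the constructs with 4 to 10 clones, the highest clone of Cops8 with 75% mutated, at 26.7%, stood apart from the other 6, of which the next was at 9.45%. Its gap took a fraction of 0.646 of the range of the 7 clones, above the Dixon critical value of 0.568. That value is exceeded in about 1 of 20 groups drawn from a normal distribution. Methylation is bounded at 0, so this rate need not hold here. The highest and the lowest clone of each of 4 constructs were tried, and no other gap exceeded its critical value.

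Methylation values were also listed for the Snx3 promoter library, in which CpGs were mutated in windows. They belong to no labelled sample and to no stated number of clones, and so entered none of the comparisons above and are only described. The construct with all 5 windows mutated, which has 2 CpGs left, was at 72.4%, against 3.45% in the unmutated construct with 44 CpGs.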

How the results depend on the processing

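Of 451 alternatives over the 8 results, 438 kept direction and side of the threshold, or for a count stayed within 1.5 times. Most alternatives left out 1 of the 58 clones, and many of these could not change the value at all. The within-promoter difference could not pass in any alternative, since the smallest p-value of its sign-flip test was 0.0625. The count of 438 is therefore no measure of how robust the results are. The 2 that moved the difference between mutation classes past the threshold were the constructs with at least 2 clones (29.03 points, permutation p = 0.0999) and leaving out Napg (25.4 points, permutation p = 0.0726). Leaving out each of the 58 clones gave differences of 27.96 to 32.7 points. The relations of methylation with OE and with activity in WT and in TKO cells kept their direction and threshold under all alternatives, from -0.85 to -0.55, -0.90 to -0.57 and -0.91 to -0.51 in rho. For the relation of methylation to the change from WT to TKO, whose rho was near 0, the sign turned without inactive constructs (rho 0.38, exact permutation p = 0.4) and with at least 10 barcodes (rho 0.0217, exact permutation p = 1.0), and leaving out a replicate number gave rho from -0.15 to 0.13. The cause was not tested.

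The number of constructs with clones that passed limma, 3 of 24, was 1 of 18 with at least 10 barcodes and 0 to 1 with any replicate left out, where the 1 without TKO replicate 1 was higher in TKO cells, unlike the 3. WT and TKO replicates share numbers, and deviations of same-numbered replicates correlated at 0.0741, 0.0566 and 0.412 over 47 constructs, so the numbers were not taken to pair the samples. With the number as a replicate block 0 constructs passed, 0 of all 51, with 5 of those with clones at an unadjusted p under 0.05. Over all constructs the main test called 14, against 2 of 27 with at least 10 barcodes.

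A level from 1 clone has no replicate check, read coverage is unknown, and bisulfite conversion was not checked.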

Other observations

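The Snx3 values, 20 constructs with no stated number of clones, were highest where few CpGs were left. The 6 constructs with 4 or 5 of the 5 windows mutated were between 8.33% and 72.4%, with a median of 24.4%, and the 14 with 0 to 3 windows mutated between 0 and 12.0016%, with a median of 3.08%. Over the 20 constructs rho with OE was -0.73. Among the denser constructs methylation did not fall with more CpGs, with 1.52% and 2.27% at 23 CpGs, 0 at 28 and 3.45% at 44. Among the 5 constructs with 4 windows mutated, methylation did not follow the number of CpGs, with 39.5% at 11 CpGs, 23.3% at 7 and 14.8% at 14.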
